A study of Mus musculus with 8 samples.

Results

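The 10 genes described here carry out antigen presentation by the major histocompatibility complex (MHC) class I pathway: the heavy chains H2-K1, H2-D1 and H2-Q7, the light chain B2m, the peptide transporter subunits Tap1 and Tap2, the loading factor Tapbp, and the immunoproteasome subunits Psmb8, Psmb9 and Psmb10. They were listed by name and function, with earlier results of these data known and with no measured value in the rule itself, from 53342 genes in the deposited tables. All 10 were among the 5256 genes with enough counts to be tested. RNA was measured in macrophages of wild-type C57BL/6 mice aged 8 weeks, taken from the heart 3 days after myocardial infarction. Cells with much (Ly6Chi) or little (Ly6Clo) of the surface antigen Ly6C were cultured for 24 hours with 100 ng/mL interleukin 21 (IL-21), a cytokine of activated T cells, or without it (unstimulated). The 4 groups, which share strain, genotype, infarction and culture, had 2 libraries each, numbered 1 and 2 in the sample titles. The labels do not say whether libraries came from separate mice or cultures, so p-values speak to the spread among these libraries alone, and part or all of it may be technical. Macrophages from mice that lack the IL-21 receptor, which the design also mentions, are not analysed here.

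Class I molecules display peptides from inside the cell to CD8 T cells. The proteasome cuts proteins into peptides, and under interferon signalling its constitutive catalytic subunits are replaced in newly made particles by the immunoproteasome subunits. The TAP transporter moves the peptides into the endoplasmic reticulum, where tapasin, the product of Tapbp, holds the transporter close to a heavy chain paired with beta-2-microglobulin until a peptide binds. In macrophages the pathway is active at rest and is a classical target of interferon.

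Of the 10 members 9 have a start-site window in RefSeq (assembly GRCm38.p6, 250 bases before to 50 after the annotated start). The windows of the heavy chain genes, B2m and Tap1 are shown. These are the members with a window that passed the test between library numbers, as described further on. Each is printed 5′ to 3′ on the gene's own strand. Capitals mark the 6 stretches of at least 10 bases that all 3 heavy chain windows hold exactly, and, in B2m, a match to AANNGAAA, the core that interferon regulatory factors bind. The windows are H2-K1 at chr17:34000298-34000597 (minus strand, of 2 RefSeq windows the one that matches the start in GENCODE M21), H2-D1 at chr17:35262844-35263143 (plus), H2-Q7 at chr17:35438905-35439204 (plus), B2m at chr2:122147437-122147736 (plus) and Tap1 at chr17:34187306-34187605 (plus).
H2-K1: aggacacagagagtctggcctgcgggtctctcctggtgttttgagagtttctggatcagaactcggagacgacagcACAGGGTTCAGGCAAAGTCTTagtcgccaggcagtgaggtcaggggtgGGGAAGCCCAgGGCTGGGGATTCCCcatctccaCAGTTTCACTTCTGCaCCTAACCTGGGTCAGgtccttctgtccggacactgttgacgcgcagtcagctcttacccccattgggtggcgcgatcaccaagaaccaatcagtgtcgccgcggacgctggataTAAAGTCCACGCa
H2-D1: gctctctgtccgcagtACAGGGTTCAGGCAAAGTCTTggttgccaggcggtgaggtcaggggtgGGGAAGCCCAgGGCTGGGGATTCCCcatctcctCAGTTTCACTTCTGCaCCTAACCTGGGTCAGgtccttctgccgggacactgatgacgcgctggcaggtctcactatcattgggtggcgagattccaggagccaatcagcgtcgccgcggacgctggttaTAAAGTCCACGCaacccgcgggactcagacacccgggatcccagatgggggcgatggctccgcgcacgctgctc
H2-Q7: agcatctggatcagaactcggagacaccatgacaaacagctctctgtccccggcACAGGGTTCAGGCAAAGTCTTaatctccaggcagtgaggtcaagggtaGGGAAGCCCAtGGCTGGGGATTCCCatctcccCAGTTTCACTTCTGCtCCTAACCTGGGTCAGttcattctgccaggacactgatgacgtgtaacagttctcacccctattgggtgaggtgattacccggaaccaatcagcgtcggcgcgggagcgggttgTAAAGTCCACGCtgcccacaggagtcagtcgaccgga
B2m: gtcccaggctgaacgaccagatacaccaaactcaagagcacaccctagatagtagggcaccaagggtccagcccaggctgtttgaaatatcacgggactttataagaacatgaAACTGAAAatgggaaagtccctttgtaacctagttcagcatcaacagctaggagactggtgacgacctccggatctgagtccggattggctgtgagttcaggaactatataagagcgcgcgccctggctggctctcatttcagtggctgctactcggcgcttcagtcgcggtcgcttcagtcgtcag
Tap1: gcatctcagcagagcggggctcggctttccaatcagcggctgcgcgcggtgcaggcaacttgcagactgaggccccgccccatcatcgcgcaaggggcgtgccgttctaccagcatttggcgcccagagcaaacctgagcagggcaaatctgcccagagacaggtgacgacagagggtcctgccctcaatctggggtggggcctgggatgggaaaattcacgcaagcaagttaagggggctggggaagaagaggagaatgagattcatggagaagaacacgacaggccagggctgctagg

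The shared stretches covered 87 bases of each heavy chain window and stood in the same order in all 3. The stretch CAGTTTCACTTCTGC, which holds AANNGAAA on the opposite strand and lies where class I genes carry their interferon response element, began at position -93 from the start in H2-K1, -153 in H2-D1 and -116 in H2-Q7. It was found in 7 of all 32851 RefSeq windows of this length (0.0213%, both strands searched, as for each motif here). The stretch GGCTGGGGATTCCC, which lies in class I enhancer A, began at -115, -175 and -137 and was found in 5 windows in all (0.0152%). Both stretches were picked from these same windows, which are among those counted, so their low shares are no separate result. AANNGAAA matched in these 3 genes and in B2m, where it began at -137, and in 23.9% of all windows. CCAAT, present in 37.4% of all windows, matched in 7 members, and TTCNNNGAA, a STAT site present in 8.3%, matched in Psmb8 alone. The windows of Tap1 and Psmb9, which are read from opposite strands, share 275 bases. A match is a description of these letters and does not show a bound site, and no match says only that the letters are not in this window.

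Total deposited counts ranged from 224329 to 483593 per library, so that 3 counts correspond to 6.2 to 13.4 CPM. Levels are given as CPM, counts scaled to a common library total with edgeR's TMM factors. After scaling, the number 2 libraries had effective totals of 405774 and 455650 in Ly6Clo and 201413 and 262218 in Ly6Chi, against 240841 to 265597 in the number 1 libraries. Ly6c2, one of the genes of the sorting antigen, was at 372 to 546 CPM in the Ly6Chi libraries and 12.0 to 74.6 CPM in the Ly6Clo libraries. Of 8 macrophage markers 7 were above 0, with Itgam at 0 in every library. In libraries of bulk cells, fewer cells of a type and less RNA per cell cannot be told apart.

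Among the heavy chains, H2-K1 and H2-D1 encode the classical K and D molecules and H2-Q7 a nonclassical molecule of the Qa family. H2-K1 (chromosome 17, 33996017 to 34000347, minus strand, GENCODE M21 on GRCm38) was at 2225 and 3240 CPM in unstimulated Ly6Chi (number 1, then number 2, here and below), 1891 and 3033 in stimulated Ly6Chi, 1428 and 3109 in unstimulated Ly6Clo, and 1750 and 2952 in stimulated Ly6Clo. In each group number 2 was the higher library, and every number 2 library lay above every number 1 library. H2-D1 (chromosome 17, 35262730 to 35267499, plus strand) was at 2947 and 3766 CPM in unstimulated Ly6Chi, 2747 and 3715 in stimulated Ly6Chi, 2378 and 3304 in unstimulated Ly6Clo, and 2487 and 3567 in stimulated Ly6Clo. Its libraries split by number in the same way, over a narrower range. H2-Q7 (chromosome 17, 35439155 to 35443773, plus strand) was at 24.6 and 168 CPM in unstimulated Ly6Chi, 39.5 and 209 in stimulated Ly6Chi, 37.4 and 128 in unstimulated Ly6Clo, and 16.0 and 122 in stimulated Ly6Clo. H2-Q7 stood widest apart between the numbers, and it rests on 4 to 58 counts per library.

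B2m (chromosome 2, 122147686 to 122153083, plus strand) encodes beta-2-microglobulin, the light chain that all these heavy chains need to fold and reach the surface. It was at 9057 and 12988 CPM in unstimulated Ly6Chi, 9179 and 13640 in stimulated Ly6Chi, 7526 and 10193 in unstimulated Ly6Clo, and 7237 and 11458 in stimulated Ly6Clo. All 4 number 2 libraries were above all 4 number 1 libraries, and within each number both Ly6Chi libraries were above both Ly6Clo libraries.

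Tap1 (chromosome 17, 34187553 to 34197225, plus strand) and Tap2 (chromosome 17, 34203527 to 34216321, plus strand) encode the subunits of the transporter. Tap1 was at 353 and 366 CPM in unstimulated Ly6Chi, 267 and 353 in stimulated Ly6Chi, 153 and 266 in unstimulated Ly6Clo, and 142 and 313 in stimulated Ly6Clo. Its numbers lay together in unstimulated Ly6Chi cells and apart in Ly6Clo cells. Tap2 was at 283 and 412 CPM in unstimulated Ly6Chi, 260 and 501 in stimulated Ly6Chi, 183 and 356 in unstimulated Ly6Clo, and 210 and 330 in stimulated Ly6Clo, with number 2 above number 1 in every pairing. Tapbp (chromosome 17, 33915899 to 33929292, plus strand) was at 724 and 649 CPM in unstimulated Ly6Chi, 615 and 507 in stimulated Ly6Chi, 448 and 518 in unstimulated Ly6Clo, and 419 and 611 in stimulated Ly6Clo. Unlike the genes above, Tapbp was lower in number 2 in both Ly6Chi groups and higher in both Ly6Clo groups.

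Psmb8, Psmb9 and Psmb10 encode the catalytic subunits LMP7, LMP2 and MECL-1. Psmb8 (chromosome 17, 34197721 to 34201454, plus strand) was at 694 and 643 CPM in unstimulated Ly6Chi, 545 and 616 in stimulated Ly6Chi, 397 and 693 in unstimulated Ly6Clo, and 411 and 624 in stimulated Ly6Clo. Psmb9 (chromosome 17, 34181987 to 34187764, minus strand) was at 139 and 181 CPM in unstimulated Ly6Chi, 107 and 104 in stimulated Ly6Chi, 83.0 and 138 in unstimulated Ly6Clo, and 123 and 156 in stimulated Ly6Clo. Psmb10 (chromosome 8, 105935735 to 105938444, minus strand) was at 117 and 153 CPM in unstimulated Ly6Chi, 150 and 120 in stimulated Ly6Chi, 83.3 and 224 in unstimulated Ly6Clo, and 100 and 175 in stimulated Ly6Clo. For all 3 the ranges of the numbers overlapped, and number 2 was the higher library in 3 of 4 groups.

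**Figure D1:**
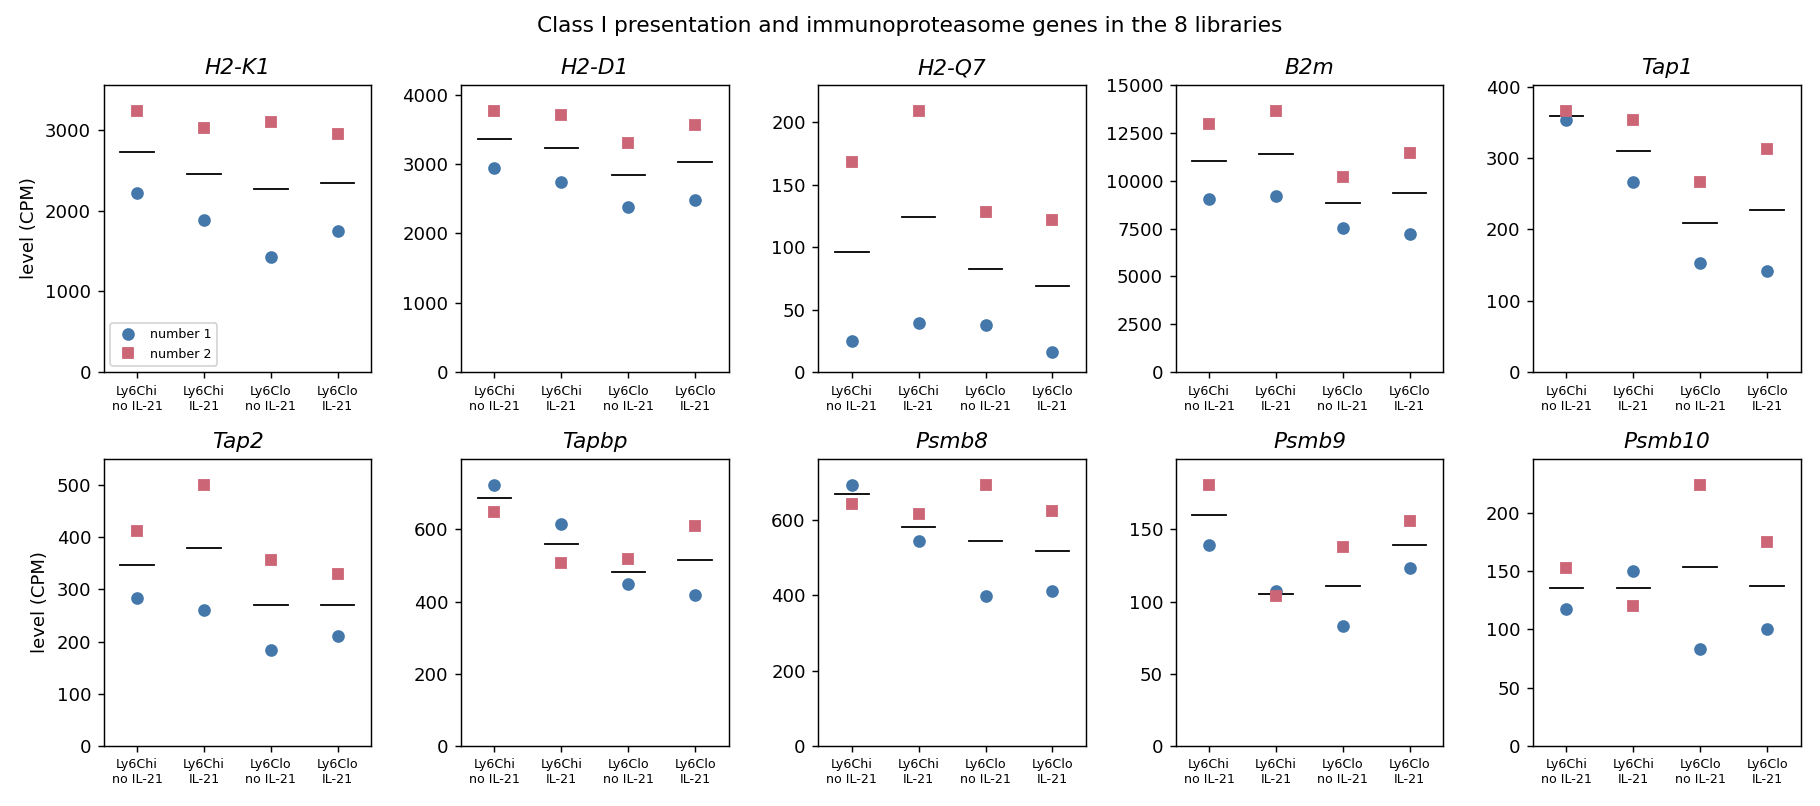
Level of each gene (CPM, linear axis from 0) in the 8 libraries by group, with circles for number 1, squares for number 2 and a line at the group mean. For H2-K1, H2-D1, H2-Q7, B2m and Tap2 every square lies above every circle, with the group means in between.

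The first question of the design is whether IL-21 changes these genes. It moved none of them detectably. In Ly6Chi cells 0 of 10 members passed edgeR's quasi-likelihood test (Benjamini-Hochberg adjusted p under 0.05), where 0.019% of all genes tested did, and in Ly6Clo cells 0 of 10 passed, where 0.133% did. Averaged over the subsets 0 of 10 passed, with 0.171% of all genes called. The adjusted p of every member was 1 in each of these, 0 members had an unadjusted p under 0.05, and DESeq2 and limma-voom also called 0.

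Averaged over the subsets, the members' log2 fold changes with IL-21 ran from -0.16 to 0.06 with a median of -0.05, against a median of -0.01 over all genes tested. Leaving out 1 library gave members' medians from -0.26 (without number 2 of stimulated Ly6Clo) to 0.19 (without number 2 of unstimulated Ly6Clo). Single members ran from -1.09 to 1.01 (the latter without number 2 of unstimulated Ly6Chi). These fits had no term for the number, so a group kept 1 number only and the difference between numbers could enter the estimate. The members ran from -0.15 to 0.07 with the number as a replicate block. The intervals below come from the fit without the library number, so the difference between numbers described further on is part of their width. For H2-D1 the averaged fold was 1.01 (95% interval 0.775 to 1.32), for B2m 1.04 (0.778 to 1.4) and for H2-K1 0.965 (0.6 to 1.55). For Psmb8 it was 0.905 (0.677 to 1.21), while for H2-Q7 it ran from 0.188 to 5.47. With the number as a replicate block, the SE of the averaged log2 fold change fell from 0.95 to 0.23 for H2-Q7, from 0.30 to 0.10 for H2-K1 and from 0.20 to 0.09 for B2m, and 0 of 10 members passed. In group means, B2m was at 11023 ± 2779 CPM in unstimulated and 11409 ± 3154 CPM in stimulated Ly6Chi cells, and at 8860 ± 1886 and 9347 ± 2984 CPM in the Ly6Clo cells (SD, n = 2 each).

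Among the members, Psmb9 had the largest IL-21 difference in either subset, and it did not pass. It was at 160 ± 29.7 CPM in unstimulated and 106 ± 2.05 CPM in stimulated Ly6Chi cells (log2 fold change -0.62, SE 0.33), and at 111 ± 39.0 and 140 ± 23.4 CPM in Ly6Clo cells (log2 fold change 0.30, SE 0.30; SD, n = 2 each). The difference between these effects was 0.92 on the log2 scale (SE 0.45, unadjusted p = 0.057, adjusted p = 1 in edgeR). No member passed the test of that difference, in which 0% of all genes were called, with 0 members at an unadjusted p under 0.05 and 0 calls by DESeq2 or limma-voom. With the number as a replicate block in edgeR, 1 member was at an unadjusted p under 0.05 for this difference and 1 for IL-21 in Ly6Chi. In that fit 0 of 10 members passed either test.

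Comparing libraries of the same number gave the same picture. Over 40 comparisons (10 genes, 2 subsets, 2 numbers) the level with IL-21 was the higher in 17 and the lower in 23, with folds of 0.428 to 1.61 and a median of 0.96. B2m was higher with IL-21 in 3 of 4 such pairs, whereas H2-K1, Tap1, Tapbp and Psmb8 were higher in 1 of 4. The 4 stimulated and the 4 unstimulated libraries overlapped for all 10 members. Of all genes, 3.65% had no such overlap.

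**Figure D2:**
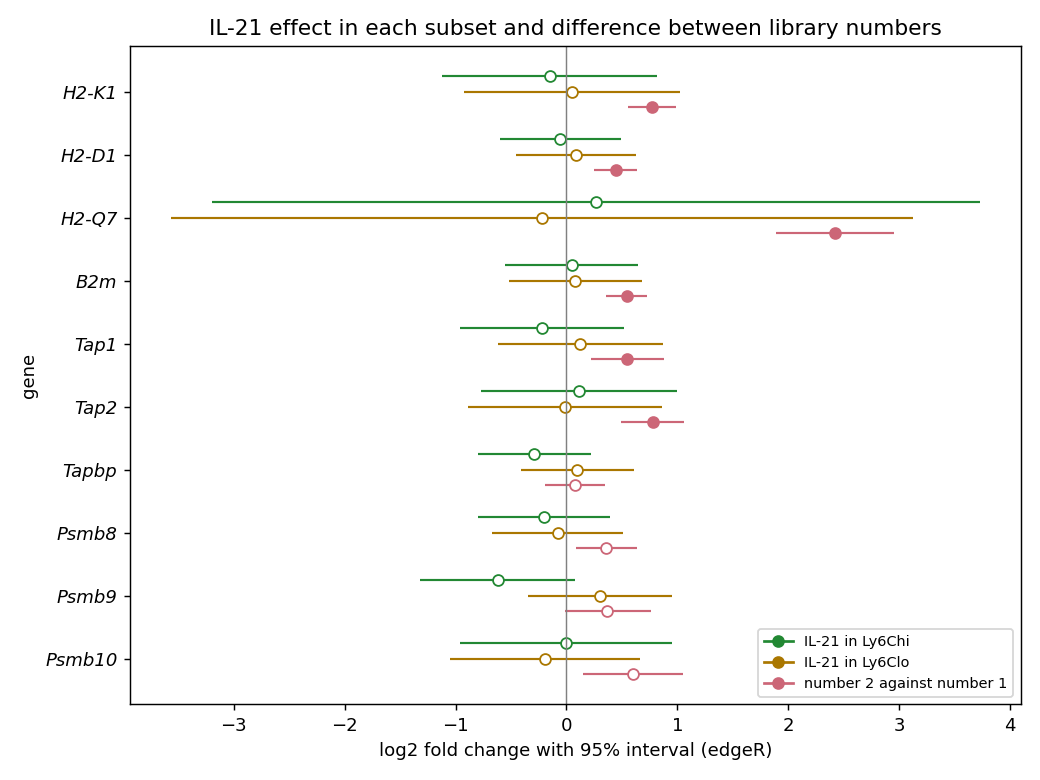
Log2 fold change of each gene with its 95% interval from edgeR, for IL-21 in Ly6Chi, IL-21 in Ly6Clo and number 2 against number 1, with filled points where the adjusted p was under 0.05. Every IL-21 interval crosses 0, and 6 of the 10 intervals between numbers belong to genes that passed. The IL-21 intervals come from the fit without the library number and those between numbers from the fit with it, so their widths are not directly comparable.

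Ly6Chi cells are the inflammatory early infiltrate of the infarcted heart and Ly6Clo cells the type linked with repair, so the subsets were compared next. Most members were at a lower mean level in Ly6Clo, without passing the test. When 1 library was left out of the fit without the number, its group kept 1 number only, and the members' median moved. With the number as a replicate block the median log2 fold change was -0.32 without IL-21 and -0.15 with it. Without IL-21, 0 of 10 passed (0.0381% of all genes called), 9 of 10 had a log2 fold change below 0, and the members' median was -0.3 against 0 for all genes. With IL-21, 0 of 10 passed (0.019% called), 8 of 10 were below 0, and the median was -0.14 against -0.01. DESeq2 and limma-voom called 0 in both, and the edgeR fit gave 1 member at an unadjusted p under 0.05 without IL-21 and 0 with it (4 and 3 with the replicate block, in which 0 passed). The median of -0.3 became 0.01 without number 1 and -0.85 without number 2 of unstimulated Ly6Clo, -0.05 without number 2 and -0.51 without number 1 of unstimulated Ly6Chi. The median of -0.14 became 0.11 without number 1 and -0.49 without number 2 of stimulated Ly6Clo, and -0.33 without number 1 and 0.04 without number 2 of stimulated Ly6Chi.

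The member at an unadjusted p under 0.05 was Tap1, at 359 ± 9.57 CPM in unstimulated Ly6Chi and 210 ± 79.3 CPM in unstimulated Ly6Clo cells (SD, n = 2 each). Its log2 fold change was -0.74 (SE 0.34, unadjusted p = 0.0483, adjusted p = 0.995 in edgeR). Tapbp had -0.5 (SE 0.24), from 686 ± 52.8 to 483 ± 49.4 CPM. Between libraries of the same number and stimulation, H2-K1, H2-D1, B2m, Tap1 and Tap2 were lower in Ly6Clo in 4 of 4 pairs, H2-Q7 and Tapbp in 3, and the immunoproteasome subunits in 2. For 0 of 10 members were all 4 Ly6Clo libraries apart from all 4 Ly6Chi libraries, against 5.35% of all genes.

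What separated the libraries was their number. In a fit adjusted for group, 6 of 10 members were higher in the number 2 libraries and 0 were lower, where 8.2% of all genes tested were called (4.6% higher and 3.6% lower). All 10 log2 fold changes were above 0, with a median of 0.55 against 0 for all genes. The labels do not say what the number stands for, so mice, days, cultures and library preparation cannot be told apart.

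The heavy chains and the light chain were all higher in number 2. H2-Q7 was 5.35-fold higher in number 2 (95% interval 3.69 to 7.74, edgeR adjusted p = 3.86e-07), from 29.4 ± 11.1 to 157 ± 40.2 CPM (SD over the 4 libraries of each number, which span the 4 groups). H2-K1 was 1.71-fold higher (1.48 to 1.98, adjusted p = 8.69e-06), from 1824 ± 331 to 3084 ± 123 CPM. H2-D1 was 1.36-fold higher (1.19 to 1.55, adjusted p = 0.00223). B2m was 1.46-fold higher (1.29 to 1.66, adjusted p = 0.000125), from 8250 ± 1011 to 12070 ± 1550 CPM. In the 8 edgeR fits that left out 1 library, these 4 genes had log2 fold changes of 2.3 to 2.66, 0.66 to 0.86, 0.41 to 0.48 and 0.5 to 0.58 in that order. Leaving out either library of a group drops that group from this comparison, so the 8 fits come in near-identical pairs.

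Of the transporter subunits, Tap2 was 1.71-fold higher (1.41 to 2.09, edgeR adjusted p = 0.000373), with log2 fold changes of 0.71 to 0.86 over those 8 fits. Tap1 was 1.47-fold higher (1.17 to 1.84, adjusted p = 0.0302). The Tap1 call was lost when any 1 Ly6Clo library was left out (log2 fold change 0.38 to 0.76 over the 8 fits, adjusted p up to 0.29) and with DESeq2 (adjusted p = 0.301). Tapbp did not pass, at 1.06-fold (0.879 to 1.27, adjusted p = 0.77), and the sign of its log2 fold change turned to as low as -0.08 without a Ly6Clo library. The immunoproteasome subunits did not pass either, with log2 fold changes of 0.36 (SE 0.13, adjusted p = 0.0992) for Psmb8, 0.37 (SE 0.19, adjusted p = 0.25) for Psmb9 and 0.60 (SE 0.22, adjusted p = 0.0962) for Psmb10 in edgeR. Psmb8 passed in 3 and Psmb10 in 2 of the 8 fits with a library left out.

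The difference between numbers was seen in both subsets for the heavy chains, B2m and the TAP genes, which were higher in number 2 in 4 of 4 groups. Over all members the number 2 level was the higher in 20 of 20 comparisons in Ly6Clo (folds 1.16 to 7.63, median 1.67) and in 15 of 20 in Ly6Chi (0.806 to 6.82, median 1.31). Whether the subsets differ in this was not tested. All 4 number 2 libraries were above all 4 number 1 libraries for 5 members, H2-K1, H2-D1, H2-Q7, B2m and Tap2, and for 5.96% of all genes, while 0 members and 5.1% of all genes had them all below. The deeper number 2 libraries were the Ly6Clo ones, and with every library thinned to 223982 counts 6 of 10 members still passed, although Tap1 missed the threshold (adjusted p = 0.0541 in edgeR) and Psmb8 met it (adjusted p = 0.0497).

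Other measures also moved with the number, and their part in the result was not tested. The summed level of the 7 detected macrophage markers was 8470 to 12012 CPM in number 1 and 7137 to 7511 CPM in number 2. Endothelial markers, 4 of 5 above 0 with Tie1 at 0 in every library, summed to 64.4 to 139 CPM in number 1 and 191 to 338 CPM in number 2. T cell markers (6 of 8 above 0, Cd3g and Cd8a at 0) summed to 0 to 6.23 CPM and 3.08 to 17.4 CPM, and NK cell markers (4 of 6 above 0, Ncr1 and Klrb1c at 0) to 0 to 3.77 CPM and 3.29 to 19.9 CPM. Fibroblast markers (5 of 5 above 0) summed to 15.8 to 99.9 and 30.7 to 156 CPM, dendritic cell markers (4 of 6, Clec9a and Siglech at 0) to 1.88 to 27.0 and 4.96 to 87.8 CPM, and neutrophil markers (4 of 6, Retnlg and Ly6g at 0) to 66.4 to 183 and 104 to 137 CPM. Cardiomyocyte markers (5 of 5) stayed at or under 75.9 CPM and platelet markers (1 of 4) at or under 3.81 CPM in every library.

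The rest of the pathway was read from lists with 91 tested genes. In edgeR 0 of 91 passed for IL-21 in either subset or averaged, with 0 at an unadjusted p under 0.05, and 0 passed between subsets, with 3 at an unadjusted p under 0.05 without IL-21 and 4 with it. Between the numbers 4.6% of all genes tested were called higher and 3.6% lower, and the median log2 fold changes of the lists went different ways. A single call in a short list says little beside these shares. Of 5 tested class I heavy chains outside the members, 2 were higher and 0 lower (median log2 fold change 0.75, all 5 above 0). H2-T22 is a nonclassical heavy chain gene whose 3′ end is partly shared with H2-T10, as described further on. It was at 145 to 260 CPM in number 1 and 398 to 468 CPM in number 2 (log2 fold change 1.14, SE 0.15, edgeR adjusted p = 4.88e-06). H2-Q4 had 1.15 (SE 0.26, adjusted p = 0.00419), a call lost without either Ly6Clo library cultured without IL-21 (adjusted p = 0.0775 and 0.0816) and with DESeq2 (0.0746), and H2-M3 had 0.66 (SE 0.26, adjusted p = 0.126).

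Genes of the endoplasmic reticulum did not follow the heavy chains. Of 9 tested genes for loading and trimming 1 was higher and 2 were lower in number 2, with a median log2 fold change of -0.35 and 1 of 9 above 0. The lower genes were the lectin chaperones of newly made glycoproteins, Calr (calreticulin, -0.52, SE 0.12, edgeR adjusted p = 0.00672) and Canx (calnexin, -0.52, SE 0.13, adjusted p = 0.0111). Calr was at 607 to 777 CPM in the number 1 libraries and 443 to 536 CPM in the number 2 libraries, without overlap. The higher gene was Tapbpl, which encodes the tapasin relative TAPBPR that edits bound peptides (1.05, SE 0.24, adjusted p = 0.00681). Calr, Canx and Tapbpl each lost the call with DESeq2 (adjusted p = 0.0766, 0.169 and 0.0744) and without either unstimulated Ly6Clo library (adjusted p of 0.0531 to 0.154), and Canx also lost it in the thinned libraries (0.116). Pdia3, the disulphide isomerase of the loading complex, had -0.24 (SE 0.10, adjusted p = 0.176).

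Proteasome genes outside the members leaned upward with few calls. The constitutive catalytic subunits that the members replace had log2 fold changes between numbers of 0.41 for Psmb5, 0.29 for Psmb6 and 0.47 for Psmb7, and 0 of 3 passed in edgeR, limma-voom or DESeq2. The summed CPM of Psmb8, Psmb9 and Psmb10 over that of these 3 genes was 1.09 to 1.45 in number 1 and 1.18 to 1.5 in number 2, so the ranges overlapped. This ratio was 1.45 and 1.5 in unstimulated Ly6Chi cells and 1.09 to 1.28 in the other 6 libraries, a split that was not tested. Of the 75-base stretches in the last 300 bases of Psmb5, 35.1% occur in Gm3375, so the Psmb5 level could hold reads of that gene. Of 11 other tested subunits of the 20S core 1 was higher and 0 lower, Psma5 at 0.55 (SE 0.17, edgeR adjusted p = 0.0383), which lost the call with DESeq2 and without any 1 library of 3 of the groups. Of 6 activator and assembly genes 0 passed, with all 6 above 0 (Psme1, a subunit of the interferon-inducible activator PA28, at 0.29, and the assembly factor Pomp at 0.27). Of 5 cytosolic peptidases 1 was lower, Blmh (bleomycin hydrolase) at -0.76 (SE 0.21, adjusted p = 0.022), a call lost without any 1 stimulated library or with DESeq2.

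Among 10 tested regulators of class I genes 1 was higher and 0 lower. Irf1, an interferon-induced transcription factor of class I promoters, was at 258, 248, 120 and 160 CPM in number 1 and 267, 312, 230 and 347 CPM in number 2, in the group order used above. Its log2 fold change was 0.59 (SE 0.17, edgeR adjusted p = 0.0275), with most of the difference in Ly6Clo cells, and the call was lost without any 1 Ly6Clo library (adjusted p of 0.204 to 0.292) and with DESeq2 (0.308). Nlrc5, the class I transactivator, had 0.44 (SE 0.30, adjusted p = 0.421) and did not pass. Of 4 tested interferon receptor genes 0 passed, Ifng was at 0 in all 8 libraries, and Ifnb1 had 2 counts in 1 library and 0 in the others.

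Interferon-stimulated genes were also higher in number 2. Of 38 tested genes on this list 22 were higher and 0 lower in number 2, with 37 of 38 above 0 and a median log2 fold change of 0.6. Isg15, a ubiquitin-like modifier, was at 2437 to 4555 CPM in number 1 and 5793 to 8821 CPM in number 2 (log2 fold change 1.06, SE 0.10, edgeR adjusted p = 7.02e-08). Rsad2, the antiviral enzyme viperin, had 1.18 (SE 0.13, adjusted p = 2.59e-06), and Iigp1, an interferon-inducible GTPase, had 2.11 (SE 0.25, adjusted p = 1.53e-06). Oasl2 had 0.10 and Oas3 0.05, and neither passed. The count of 22 fell to 14 without either stimulated Ly6Clo library, to 13 without either unstimulated Ly6Clo library and to 13 with DESeq2. With IL-21, averaged over subsets, the list had a median of 0.02 and 0 calls.

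**Figure D3:**
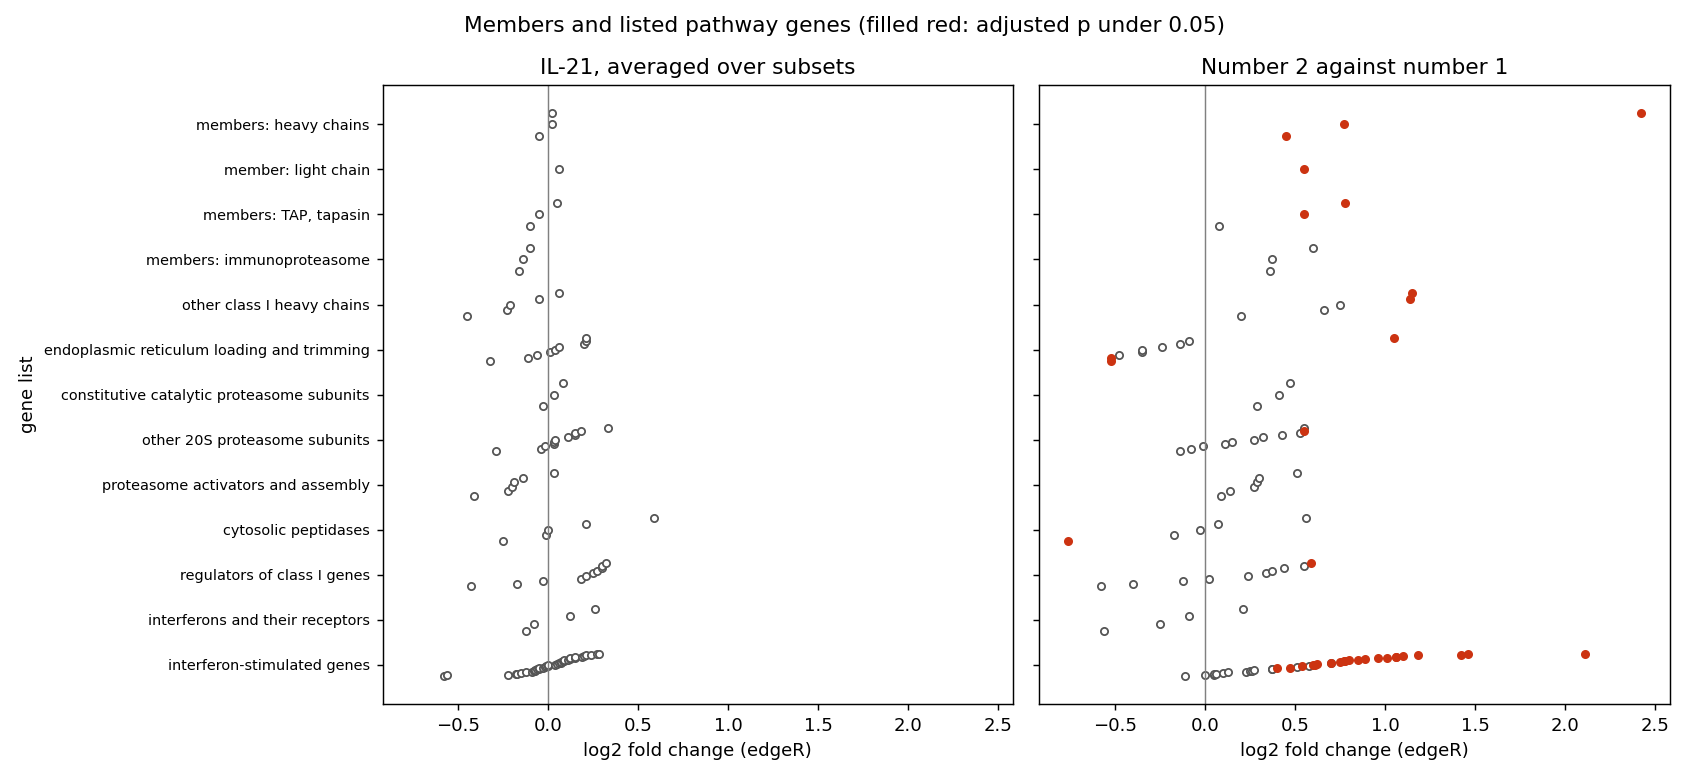
Log2 fold change (edgeR) of the members by role and of each tested gene of the pathway lists, for IL-21 averaged over subsets (left) and number 2 against number 1 (right), with filled red points at an adjusted p under 0.05. No point passes on the left, and on the right class I heavy chain and interferon-stimulated genes lie above 0 while most endoplasmic reticulum genes lie below it.

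Which genes of the whole table follow the members most closely was asked by correlation with the members' mean log2 CPM over the 8 libraries, among 2912 genes with a mean of at least 20 counts. The closest were Oasl1 (Pearson r = 0.986), Ifit1 (0.986), Ifi205 (0.985), Ifit3 (0.981) and Usp18 (0.98), and the points share their library and its depth. Ifit1, Ifit3 and Usp18 are on the list of interferon-stimulated genes. Ifit3 was at 325 to 718 CPM in number 1 and 875 to 1000 CPM in number 2. Within the members, H2-K1 with H2-D1 (r = 0.97), H2-D1 with B2m (0.97), H2-D1 with Tap2 (0.96) and B2m with Tap2 (0.96) were the closest pairs, and Tapbp with H2-Q7 (0.2) the least alike.

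**Figure D4:**
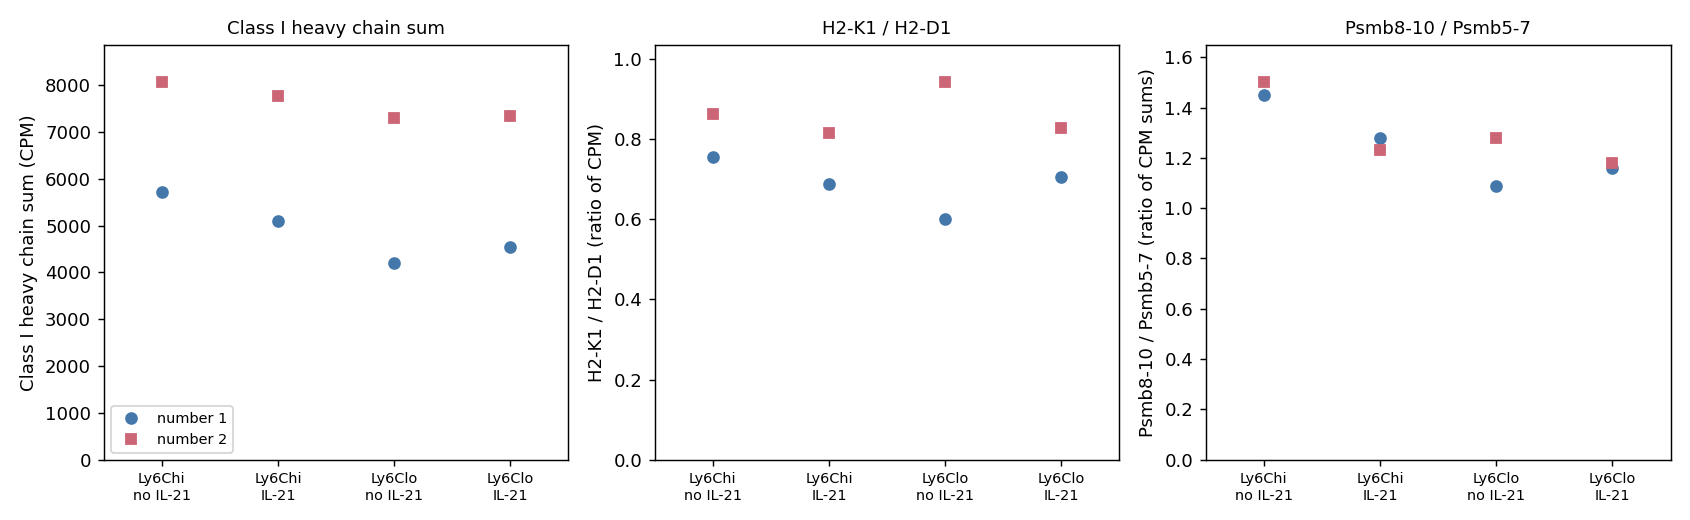
Summed class I heavy chain level (CPM), ratio of H2-K1 to H2-D1, and ratio of the summed immunoproteasome to the summed constitutive catalytic subunits in the 8 libraries (linear axes from 0), with circles for number 1 and squares for number 2. The heavy chain sum is 4192 to 5724 CPM in number 1 and 7298 to 8058 CPM in number 2, while the proteasome ratio overlaps.

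Near-identical heavy chain genes could share reads, and whether the authors divided such reads is not given in the sources used here. Each member had a deposited value that was not whole in at least 1 library. In GENCODE M21, 0.8% of the 75-base stretches in the last 300 bases of coding H2-K1 transcripts occur exactly in another gene, and 0% of those of H2-D1 and H2-Q7. At 50 bases the shares were 9.5% for H2-K1 and 13.5% for H2-D1. Over the whole transcript 22.6% of the 75-base stretches of H2-Q7 occur elsewhere, so its level could hold reads of relatives. Of such stretches in the last 300 bases of H2-Q6, 25.2% occur in an H2-Q7 transcript. In H2-T22, 25.4% of them occur in an H2-T10 transcript, and 49.0% at 50 bases. The H2-T22 level could therefore hold reads of H2-T10. H2-Q8 and H2-Q9 are not analysed here and had no match in GENCODE M21 symbols, so these shares do not count genes of those names. The sum of the listed class I heavy chain genes is free of reads divided among those genes. The sum is not free of reads shared with genes outside the list, whether class I or not. It was higher in number 2 (log2 fold change 0.65, SE 0.09, edgeR adjusted p = 2.03e-05) and was not called for IL-21 averaged over subsets (-0.03, SE 0.23, adjusted p = 0.999).

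Some members also overlap other genes. Psmb9 and Tap1 share 212 exon bases on opposite strands, Psmb8 shares 498 with Gm20496, Tap2 shares 533 with Gm15821 and 165 with Gm20496, and Tapbp shares 904 with Gm19412, all on opposite strands, and 149 with Zbtb22 on the same strand. Whether strand was used in counting is not given in the sources used here, so the levels of these 5 genes are uncertain to that extent.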

How the data were processed

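Messenger RNA was measured in 8 libraries (4 groups of 2) made with a QuantSeq 3' kit and its identifier module and read as single ends, per the labels' protocols. As deposited, the values are expected counts (estimated ones, 53.3 to 59.7% of those above 0 not whole at a tolerance of 0.001), which the file headers call raw. The build mm10 and DESeq2 are named without version, per the submitters' processing notes. What is not given in the sources used here is the aligner, the counting program, the annotation, and the use of identifiers and strand, so counts may include amplified copies.

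Identifiers were matched to GENCODE M21 (53237 of 53342). Values were rounded to whole numbers for the count model. Genes were kept by filterByExpr (minimum count 10, minimum total 15), scaled by TMM, and entered as 4 group means into edgeR 4.0.16 (R 4.3.3, with limma 3.58.1) with the robust quasi-likelihood test (4 residual degrees of freedom). The comparison of numbers added the number as a term. P-values were adjusted over the 5256 genes tested by the Benjamini-Hochberg method, and a gene was called under 0.05. The code was tested on simulated data. DESeq2 1.42.0, limma-voom, other scaling and filters, left-out libraries and thinning to 223982 counts (added after seeing the data) were alternatives. Members and lists were chosen with earlier results of these data known. The rule named all members, each list's called genes and its 3 genes of highest mean level, and the 5 genes most like the members. Of these genes, those whose values add nothing to the counts given are left out of the text. Intervals cover the spread between libraries as fitted. Results for some listed genes are not reported here.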

Additional observations from a re-analysis of the deposited data

How the results depend on the processing

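Members called stayed at 0 in the 6 IL-21 and subset comparisons under the alternatives run, of which the fit of only the groups compared covered 4. Between numbers 5 to 8 of 10 were called (5 with DESeq2, 7 without a filter, 5 to 8 with a library left out). With the heavy chains summed 7 members were tested singly, 3 of them called between numbers and 0 in the other comparisons. A fit with a group's lone library assumes that it varies like the other groups, and for the numbers it drops that group. Psmb10 gained the call without a filter (adjusted p = 0.0366) and without either stimulated Ly6Chi library, and Psmb8 without either unstimulated Ly6Chi library or number 2 of the stimulated ones.

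The groups share only a replicate number in the labels. Deviations of same-numbered libraries correlated at 0.23 to 0.41 over the 6 pairs of groups. With the number as a replicate block no member passed (lowest adjusted p 0.121, Tap1 between unstimulated subsets), 1 was at an unadjusted p under 0.05 for IL-21 in Ly6Chi and 1 for the difference of the IL-21 effects, and the members' averaged IL-21 log2 fold changes ran from -0.15 to 0.07.

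Counts of all genes called moved by over 1.5 times as follows. IL-21 in Ly6Chi had 1 call, 8 without a filter, 14 with the replicate block and 2 thinned. IL-21 in Ly6Clo had 7, 3 with upper-quartile factors, 1 with limma-voom, 16 without a filter, 2 at a mean count of at least 20, 3 unrounded, 29 with the block, 3 thinned and 0 with only the groups compared. Averaged, 9 became 5 with limma-voom, 35 without a filter and 60 with the block. Their difference had 0, and 1 without a filter or with the block. Between unstimulated subsets 2 became 1 with limma-voom or a mean count of at least 20, 16 without a filter and 31 with the block. Between stimulated subsets 1 became 0 with limma-voom, a mean count of at least 20 or only the groups compared, 22 without a filter, 41 with the block and 2 thinned. Between numbers 431 became 131 with DESeq2 and 177 to 419 with a library left out. The causes were not tested. Of the members, H2-Q7 rests on the fewest counts, 4 to 58 per library.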

Other observations

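The balance among the class I heavy chains also moved with the library number. The ratio of H2-K1 to H2-D1 was 0.755 and 0.861 in unstimulated Ly6Chi (number 1, then number 2), 0.688 and 0.816 in stimulated Ly6Chi, 0.601 and 0.941 in unstimulated Ly6Clo, and 0.704 and 0.828 in stimulated Ly6Clo, so all 4 number 2 libraries were above all 4 number 1 libraries. H2-Q7 made up 0.352 to 0.892% of the summed heavy chain level in number 1 and 1.66 to 2.68% in number 2. The member heavy chains summed over B2m gave ratios of 0.51 to 0.588 and 0.51 to 0.642, which overlap. These ratios were formed after the levels were seen and were not tested.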
